A study of Mus musculus with 8 samples.

Results

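The effect of a bone marrow transplant was examined in blood-derived cells of injured mouse muscle, by comparing 2 arrays of cells from the injured muscle of transplanted mice with 2 arrays of cells from the injured muscle of untransplanted mice. These 4 arrays were chosen by their titles, out of 8 arrays in all. The study sorted cells that carry both CD45 and Sca1 and measured their RNA on Affymetrix Mouse430A arrays, also from uninjured muscle and from bone marrow. All mice were C57BL/6 and 6 to 8 weeks old. Both groups compared here had received cardiotoxin, a component of cobra venom that kills fibres and leaves the muscle to regenerate, so the injury is shared and the transplant is the labelled difference. The labels name no transgene or mutation. Whether the sorted cells of transplanted mice came from the donor or the host, how hosts were conditioned and how long after injury cells were taken is not given in the sources used here.

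CD45, the product of Ptprc, is found on blood cells and their progenitors. Sca1 marks mouse blood stem cells, but also activated lymphocytes, many endothelial cells and the fibroblast-like progenitors that lie between muscle fibres. After cardiotoxin, monocytes enter the muscle from the blood, become macrophages, clear dead fibres and are followed by repair, while resident macrophages, mast cells and dendritic cells of the tissue are renewed from the marrow at very different rates.

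Ptprc was bright on all 4 arrays, at 6644 and 5204 with the transplant and 5976 and 6996 without it, and did not pass the test (log2 fold change -0.14, SE 0.15, adjusted p = 0.631). No probe set is annotated to Ly6a, which encodes Sca1, so Sca1 itself could not be checked. The arrays were alike in quality: the ratio of the 3' to the 5' Gapdh control probe set ran from 0.808 to 0.882 and that of beta-actin from 1.18 to 1.23, and median intensities ran from 56.3 to 66.3, lower on both transplanted arrays. Across all 22626 probe sets other than controls, which are not independent replicates, the correlation was 0.950 between the transplanted arrays. It was 0.947 between the untransplanted arrays and 0.928 to 0.938 between arrays of different groups. Of the Y-linked genes tested, Eif2s3y had 323 and 348 with the transplant and 320.0 and 271 without it, and 0 of 3 passed the test. Intensities below are the deposited values of each array, transplanted array 1 and 2 and then untransplanted array 1 and 2. Fold changes are transplanted over untransplanted, on the log2(intensity + 4) scale, each followed by its limma standard error (SE) and its Benjamini-Hochberg adjusted p, and genes were called at 0.05.

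More genes were lower with the transplant than higher. Of 8019 genes tested, 552 (6.88%) fell and 260 (3.24%) rose, and for each of these 812 genes both arrays of 1 group lay above both arrays of the other. Over all tested genes the groups were separated in this way in the higher direction for 27.9% and in the lower direction for 26.9%. The falls were also larger, with a median of 2.55-fold against 1.80-fold for the rises, and 134 genes fell but only 12 rose by 4-fold or more. The median log2 fold change of all tested genes was 0.01. Counted without a test, as separated groups with a difference of at least 2-fold, 590 genes (7.36%) were lower and 145 (1.81%) higher. By probe sets these were 887 (6.46%) and 271 (1.97%), and without the filter on low values 8.94% and 3.77% of the 12393 named genes. That filter, which asks for 38.3 or more on at least 2 of the 4 arrays, was passed only through the untransplanted arrays by 256 genes, 62 of which were called lower, and only through the transplanted arrays by 96, 7 of which were called higher. Where a called gene had another tested probe set, that probe set had the same sign for 208 of 221 genes that fell and 87 of 98 that rose.

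**Figure D1:**
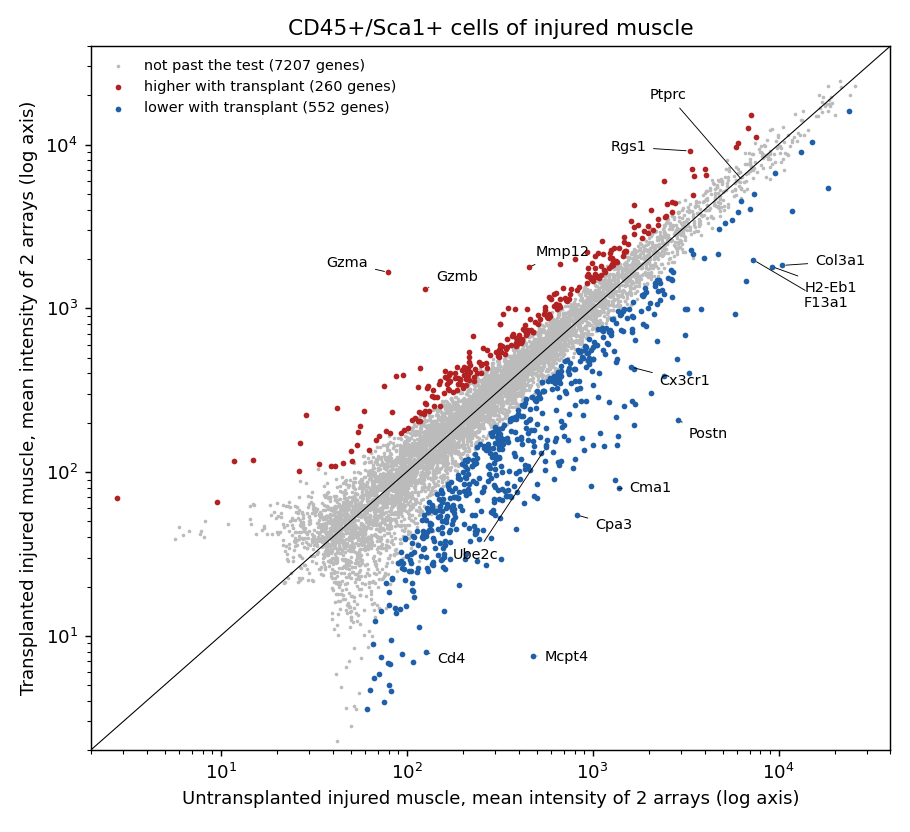
Mean intensity of each tested gene in untransplanted (x axis) and transplanted (y axis) injured muscle, 2 arrays each, both axes logarithmic, with called genes in colour and the line of equal intensity. The 552 genes that fell spread further from the line than the 260 that rose, Gzma and Gzmb stand apart above it, and Ptprc lies on it.

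These counts depend on how the spread between 2 arrays was estimated. By probe sets, 412 (3.0%) rose and 805 (5.86%) fell. Without untransplanted array 1 the counts were 195 and 401, and without untransplanted array 2 they were 184 and 392. Without the trend of the spread with intensity, 82 rose and 404 fell. When the 4 arrays of bone marrow and uninjured muscle joined the fit, with their wider spread, 6 probe sets rose and 47 fell. With each array centred on its median instead, 784 rose and 632 fell, so that 44.6% of calls were falls, against 66.1% on the deposited scaling. That centring shifted the median log2 fold change by 0.13 and changed the sign of 0 of the 812 called genes. The labels do not say that the 2 arrays of a group came from different animals, so the p-values measure only how far single arrays differed, possibly for technical reasons. In bulk RNA, fewer cells of a type and less RNA per cell cannot be told apart.

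A large block of the genes that fell encodes the fibrous matrix. Fibroblasts and other mesenchymal cells build it, and they do not carry CD45. Of 23 tested genes of the fibroblast and mesenchymal list, 19 fell and 0 rose, by 2.62-fold to 13.7-fold, with a list median log2 fold change of -2.52. Col3a1, the chain of type III collagen, had 1716 and 1939 with the transplant against 10289.7 and 10693 without it (log2 fold change -2.52, SE 0.12, adjusted p = 3.09e-06). Col1a2, a chain of type I collagen, had 995 and 856 against 5774 and 5932 (log2 fold change -2.66, SE 0.13, adjusted p = 3.09e-06). Both transplanted arrays lay far below both untransplanted arrays for each of these collagens, yet still well above the median intensity of 64.2. Postn, a matrix protein of repair fibroblasts, had 215 and 199 against 2823 and 2941 (log2 fold change -3.77, SE 0.14, adjusted p = 1.00e-06), the steepest fall of the list. The chains of type V and VI collagen fell by similar steps, with log2 fold changes of -2.57 for Col5a1, -2.64 for Col5a2, -2.64 for Col6a1, -2.72 for Col6a2 and -3.07 for Col6a3. Pdgfra, the receptor that marks the progenitors between fibres, had 52.6 and 36.0 against 159 and 112 (log2 fold change -1.53, SE 0.33, adjusted p = 0.0167), and its call was lost without untransplanted array 1. The members that did not pass were Thy1, Pdgfrb, Pi16 and Gsn, and Gsn, which blood cells also express, had a log2 fold change of 0.10.

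The summed intensity of the 23 fibroblast genes was 9781 to 10950 with the transplant and 43376 to 44005 without it. On the 2 arrays of uninjured muscle, whose RNA controls differ from those of the injured arrays, this sum was 46834 and 14812. It can thus differ widely between arrays of 1 group. The list was drawn up for cells that do not carry CD45, but blood cells also express Gsn, and Thy1 is also in the T cell list. Which of the sorted cells held these transcripts was not tested. Nor was the part of these genes in the other differences described here. Beyond the list, Mgp, an inhibitor of calcification made by mesenchymal cells, had 83.0 and 94.8 against 1334 and 1310.0 (log2 fold change -3.84, SE 0.17, adjusted p = 2.36e-06). Col8a1, a short-chain collagen, had 36.8 and 22.2 against 321 and 324 and was at least 7.71-fold lower, measured against the filter value of 38.3 because both transplanted arrays lay under it. Lama2, a laminin chain of the muscle basement membrane, was at least 2.03-fold lower, and Ccn4, a secreted matrix protein, at least 1.88-fold. The calls of Lama2 and Ccn4 were lost without either untransplanted array. Kdelr3, which returns proteins from the Golgi to the endoplasmic reticulum, had 49.2 and 8.10 against 244 and 236; its log2 fold change of -3.26 became -4.33 without transplanted array 1 and -2.20 without transplanted array 2.

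Enzymes that cut or join the matrix moved in both directions. Of 21 tested matrix remodelling genes, 7 fell and 4 rose (list median -0.25). The 7 that fell were the assembly and mesenchymal genes Tnc, Lox, Fn1, Mmp2, Adamts1, Mmp14 and Timp1. Tnc, tenascin C, had 70.2 and 94.2 against 1006 and 949 (log2 fold change -3.52, SE 0.20, adjusted p = 4.33e-06), and Lox, which cross-links collagen, had 121 and 173 against 1389 and 1305 (log2 fold change -3.18, SE 0.19, adjusted p = 6.43e-06). Fn1, fibronectin, had 981 and 993 against 3881 and 3777 (log2 fold change -1.95, SE 0.13, adjusted p = 9.16e-06). The 4 that rose were Mmp12, Adam8, Mmp13 and Ecm1. Mmp12, the elastase of macrophages, had 1984 and 1575 against 444 and 461 (log2 fold change 1.96, SE 0.16, adjusted p = 4.30e-05). Adam8, a surface protease of myeloid cells, had 3809.5 and 4733 against 1725 and 1613 (log2 fold change 1.35, SE 0.14, adjusted p = 0.000257). Mmp13, a collagenase, had 281 and 578 against 113 and 125 (log2 fold change 1.73, SE 0.29, adjusted p = 0.00492): both transplanted arrays were higher, but they differed from each other more than the untransplanted arrays did. The calls of Ecm1 and Timp1 were lost without untransplanted array 2.

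Some genes of muscle cells also fell. Of 16 tested genes of skeletal muscle fibres, 6 fell and 0 rose (list median -1.07, or -0.62 with values under the filter value set to it), and 5 of the 16 passed the filter on low values only through the untransplanted arrays. Acta1, the actin of skeletal muscle, had 68.5 and 75.0 against 398 and 321 (log2 fold change -2.26, SE 0.22, adjusted p = 0.000143), and Mylpf, a fast myosin light chain, had 41.5 and 36.6 against 239 and 251 (log2 fold change -2.53, SE 0.25, adjusted p = 0.000183). Tnnc2, the fast troponin C, was at least 2.65-fold lower, with 8.78 and 5.13 against 121 and 96.6. The count of 6 became 4 without untransplanted array 1, 3 without untransplanted array 2 and 8 without transplanted array 1. The summed intensity of all 24 genes of the list on the array was 1114 to 1290 with the transplant and 2550 to 2593 without it. Their part in the result was not tested. Myh1, Myh2 and Myh4, the heavy chains of fast adult myosin, did not reach the filter in either group. Of 8 tested genes of satellite cells, the stem cells of muscle, and of myogenic cells, 4 fell, and 5 of the 8 passed the filter only through the untransplanted arrays. Vcam1, an adhesion molecule of satellite cells that endothelial cells and macrophages also carry, had 65.3 and 72.8 against 497 and 511 (log2 fold change -2.80, SE 0.20, adjusted p = 1.53e-05). The others were Cdkn1c, Chrna1 and Cdh15, each at least 2-fold lower, and without untransplanted array 1 the calls of these 3 were lost, without untransplanted array 2 those of Chrna1 and Cdh15, and without transplanted array 2 that of Cdh15.

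Mast cell genes were among the steepest falls. Mast cells are long-lived tissue cells, packed with proteases and heparin, that arise from marrow or embryonic progenitors. Of 8 tested genes of mast cells, basophils and eosinophils, 6 fell and 0 rose. The list median was -2.62, or -1.70 with all values under the filter value of 38.3 set to it. The 6 that fell are all expressed by mast cells. The 2 tested members that did not pass, Hdc and Gata2, are expressed by mast cells as well. Of the 8, 4 passed the filter only through the untransplanted arrays, so the share that fell is a description of the genes that could be tested. Mcpt4, a chymase of connective tissue mast cells, had 6.85 and 8.24 with the transplant against 551 and 411 without it and was at least 11.3-fold lower (adjusted p = 6.17e-06). Cma1, another chymase, had 92.0 and 67.1 against 1428 and 1333 (log2 fold change -4.07, SE 0.19, adjusted p = 3.09e-06). Cpa3, the mast cell carboxypeptidase, had 53.8 and 55.5 against 882 and 766 (log2 fold change -3.82, SE 0.19, adjusted p = 3.09e-06). On the transplanted arrays these 3 proteases lay between 6.85 and 92.0, whereas on the untransplanted arrays they were clearly measured. The tryptases Tpsb2 and Tpsab1 were at least 3.88-fold and 1.82-fold lower. Fcer1a, a chain of the IgE receptor, had 47.4 and 20.2 against 129.5 and 115 (log2 fold change -1.84, SE 0.41, adjusted p = 0.0203). The calls of Fcer1a and Tpsab1 were lost without either untransplanted array. Over all 16 genes of the list on the array, the summed intensity was 378 to 446 with the transplant and 3150 to 3551 without it. Cma1, Cpa3 and Mcpt4 made up most of this difference, so the sum mainly describes these proteases. Of the 16 genes, the eosinophil and basophil genes Prg2, Epx, Siglecf, Ccr3, Il5ra and Mcpt8 did not reach the filter. Nor did the mast cell genes Kit and Ms4a2.

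MHC class II genes, whose products present peptides to CD4 T cells, fell together with markers of dendritic cells. Of 19 tested genes of this list, 12 fell and 0 rose, by 1.57-fold to 5.72-fold (list median -1.29). H2-Aa, the alpha chain of I-A, had 5713 and 5202 against 17131 and 19782 (log2 fold change -1.75, SE 0.12, adjusted p = 1.66e-05). H2-Ab1, its beta chain, had 1444 and 1486 against 6836 and 6509 (log2 fold change -2.18, SE 0.12, adjusted p = 4.45e-06), and H2-Eb1, the beta chain of I-E, had 1998 and 1599.8 against 9782 and 8611 (log2 fold change -2.36, SE 0.14, adjusted p = 6.48e-06). Cd74, the invariant chain that escorts class II molecules, had 3744 and 4068 against 12678 and 10977 (log2 fold change -1.59, SE 0.13, adjusted p = 3.55e-05). All 4 remained bright on the transplanted arrays, while the untransplanted arrays were 3.02-fold to 5.12-fold higher. H2-DMa and H2-Oa, parts of the peptide exchange machinery, fell by 1.29 and 1.71 on the log2 scale. Ciita, the master activator of class II transcription, did not pass the test (log2 fold change -1.66, SE 0.49, adjusted p = 0.0656).

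The class II promoters share a Y box, an inverted CCAAT sequence bound by the factor NF-Y next to the X box. The promoters of 3 of the class II genes that fell are shown because they carry the same Y box letters, CTGATTGG, in capitals, in the 150 bases before the transcription start on the gene's strand (RefSeq, GRCm38.p6). They lie at chr17:34287824-34287973 on the minus strand for H2-Aa, chr17:34305717-34305866 on the plus strand for H2-Eb1 and chr17:34092229-34092378 on the plus strand for H2-Oa.
H2-Aa: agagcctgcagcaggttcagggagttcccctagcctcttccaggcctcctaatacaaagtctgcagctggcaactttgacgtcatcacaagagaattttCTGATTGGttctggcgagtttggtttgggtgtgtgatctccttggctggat
H2-Eb1: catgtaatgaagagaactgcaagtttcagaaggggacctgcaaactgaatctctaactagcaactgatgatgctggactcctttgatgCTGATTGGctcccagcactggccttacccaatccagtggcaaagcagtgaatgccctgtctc
H2-Oa: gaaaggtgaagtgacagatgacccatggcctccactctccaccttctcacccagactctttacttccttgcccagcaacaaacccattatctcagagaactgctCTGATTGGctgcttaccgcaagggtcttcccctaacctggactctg
The Y box began 51, 62 and 46 bases before the start of H2-Aa, H2-Eb1 and H2-Oa. Searched on both strands in this window, CTGATTGG was found in 3 of the 5 class II presentation genes with an entry in the promoter table, and in 3.70% of all 27025 genes. H2-Ab1 and Cd74 had no entry. The match describes these letters and is not a measured binding site.

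Among the dendritic cell genes of the list, Cd209a, a lectin of monocyte-derived dendritic cells, had 83.6 and 84.7 against 474 and 526 (log2 fold change -2.52, SE 0.19, adjusted p = 2.56e-05). Ccr7, the receptor that takes dendritic cells and T cells to lymph nodes, had 66.6 and 47.4 against 293 and 283 (log2 fold change -2.28, SE 0.24, adjusted p = 0.000271). The costimulators Cd86 and Cd83 fell by 1.04 and 0.65 on the log2 scale. Cd40, Cd80, Irf4, Irf8, Batf3 and Tcf4 did not pass the test, and Xcr1 and Zbtb46 did not reach the filter. Flt3, the growth factor receptor of dendritic cell progenitors, had 64.4 and 33.7 against 123 and 144 (log2 fold change -1.43, SE 0.35, adjusted p = 0.0295). The calls of Cd83, H2-Oa and Flt3 were lost without either untransplanted array, and that of Itgax without untransplanted array 2. The summed intensity of all 21 genes of the list on the array was 20171 to 20681 with the transplant and 58920 to 59189 without it.

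**Figure D2:**
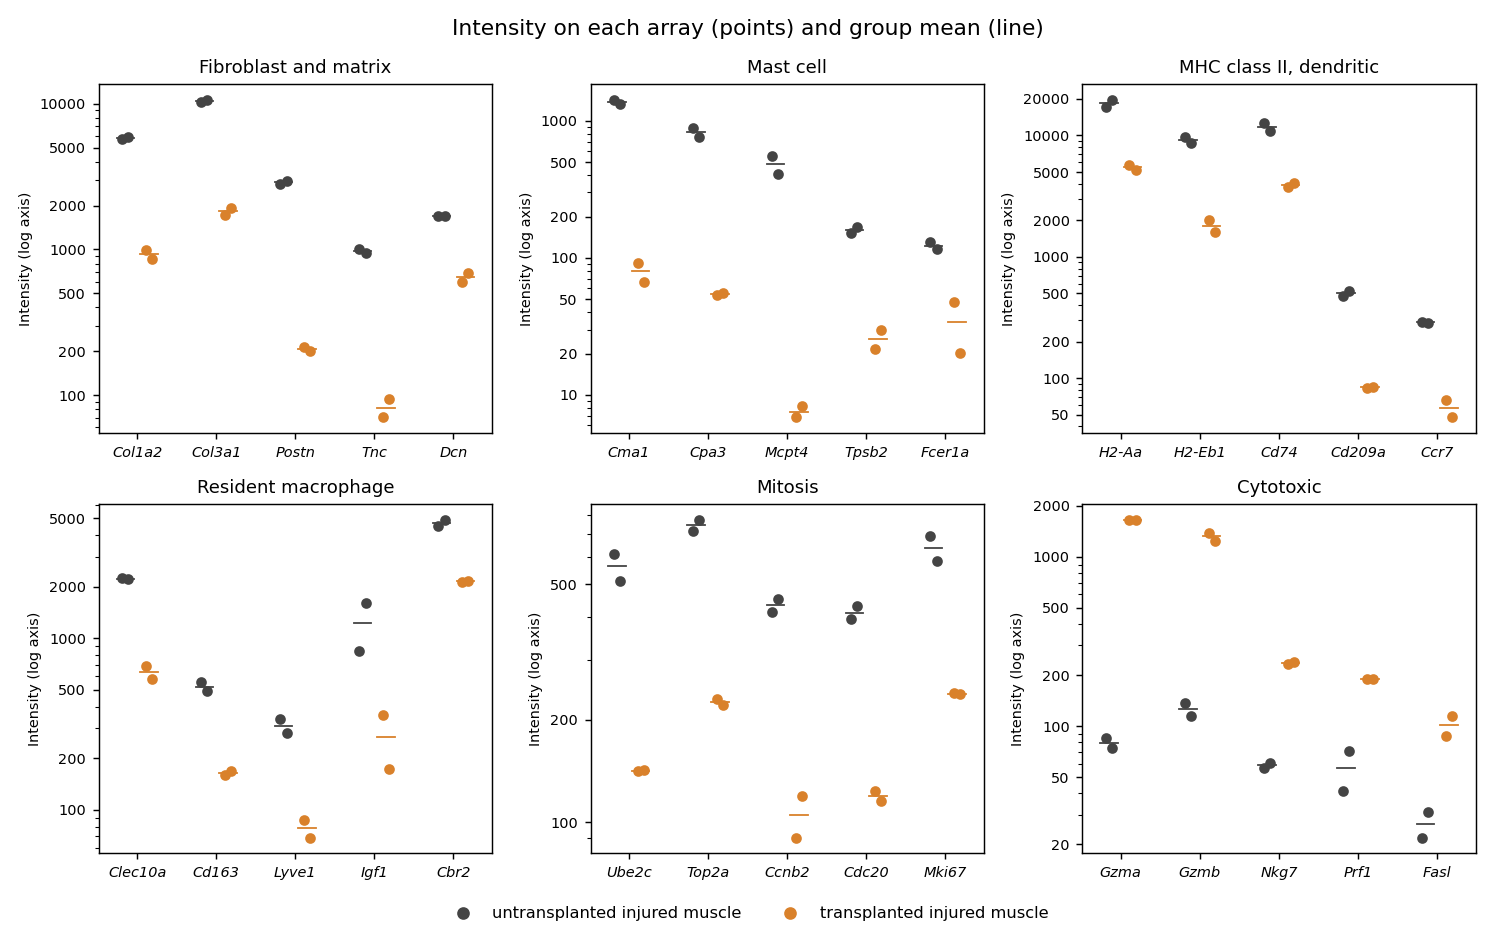
Intensity (log axis) of 5 genes from each of 6 groups on the 2 untransplanted (dark) and 2 transplanted (orange) arrays, with the group mean as a line. The transplanted arrays lie below the untransplanted arrays for every gene shown except the 5 cytotoxic genes, where they lie above. Igf1 spreads widely within both groups.

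The list of monocytes and macrophages and the list of resident macrophages differed in their calls. Of 23 tested monocyte and macrophage genes, 4 fell and 4 rose, as described below. That was 17.4% in each direction, against 6.88% lower and 3.24% higher of all tested genes. The 15 that did not pass included Adgre1, C1qa, C1qb, C1qc, Cd68, Ccr2 and Lyz2. Adgre1 had 6560.1 and 7625 against 5884 and 6232. Of 15 tested genes of tissue-resident macrophages, by contrast, 10 fell and 0 rose (list median -1.61, or -1.14 with values under the filter value set to it). With median centring, with all probe sets of a gene averaged or at an adjusted p of 0.10, 1 member was called higher. Clec10a, a lectin for galactose, had 691 and 580.3 against 2239.8 and 2216 (log2 fold change -1.81, SE 0.14, adjusted p = 4.05e-05). Cd163, the scavenger receptor for haemoglobin, had 160.3 and 169 against 553 and 494 (log2 fold change -1.64, SE 0.18, adjusted p = 0.000268). Lyve1, a hyaluronan receptor of macrophages along vessels, had 86.8 and 69.0 against 340.2 and 279.6 (log2 fold change -1.94, SE 0.23, adjusted p = 0.000464). In each case the higher transplanted array was below 0.5 times the lower untransplanted array. The others were Ednrb, Cbr2, Fcna, Retnla, Gas6, Stab1 and Igf1, which fell by 2.06-fold to 4.60-fold. Mrc1, the mannose receptor, had 3476 and 3805 against 4909 and 4778 and did not pass (adjusted p = 0.0648), and Folr2, also in the list, had the opposite sign without passing (log2 fold change 0.40, SE 0.12, adjusted p = 0.0687). All 10 calls held when any 1 of the 4 arrays was left out.

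Among 23 tested monocyte and macrophage genes, 4 fell and 4 rose (list median -0.02). F13a1, a transglutaminase chain of monocytes and tissue macrophages, had 2163 and 1786 against 7472 and 7173 (log2 fold change -1.90, SE 0.13, adjusted p = 1.66e-05). Cx3cr1, the fractalkine receptor of patrolling monocytes and their progeny, had 486 and 391 against 1721 and 1482 (log2 fold change -1.86, SE 0.16, adjusted p = 7.80e-05). Csf1r and Mertk fell less, by 0.57 and 0.56 on the log2 scale, and both calls were lost without either untransplanted array or without transplanted array 2, that of Mertk also without transplanted array 1. The 4 that rose were Msr1, Gpnmb, Trem2 and Itgam. Msr1, a scavenger receptor, had 2736 and 2391 against 1189 and 1052 (log2 fold change 1.19, SE 0.14, adjusted p = 0.000512). Gpnmb, a glycoprotein of lipid-loaded macrophages, had 6903 and 7366 against 3687 and 3126 (log2 fold change 1.07, SE 0.13, adjusted p = 0.000572), and Trem2, a lipid receptor, had 3002 and 3247 against 1804 and 1542 (log2 fold change 0.90, SE 0.14, adjusted p = 0.00248). Itgam, the alpha chain of the complement receptor CD11b, rose by 0.97 (adjusted p = 0.00367).

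Of 16 tested genes of alternative activation, the macrophage state driven by interleukin 4, 7 fell and 2 rose (list median -0.70). Besides Clec10a, Cd163, Stab1 and Retnla, the genes that fell were Ccl24, Mgl2 and Il10. Ccl24, an eosinophil attractant, had 110.3 and 112 against 418 and 447 (log2 fold change -1.93, SE 0.19, adjusted p = 0.000149). Mgl2, a lectin close to Clec10a, had 30.2 and 45.6 against 214 and 224 (log2 fold change -2.44, SE 0.29, adjusted p = 0.000494). Arg1, the arginase of this state, had 1827 and 1925 against 1659 and 1117 and did not pass (adjusted p = 0.155), and Chil3, a chitinase-like protein, rose with 1941 and 2248 against 1033 and 1024 (log2 fold change 1.02, SE 0.14, adjusted p = 0.00125). The call of Il10 was lost without any 1 of the 4 arrays.

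Genes of cell division fell with the transplant. Of 23 tested genes of mitosis, 17 fell and 0 rose, by 1.94-fold to 5.09-fold (list median -1.36), and the 6 that did not pass had log2 fold changes below 0. Ube2c, which marks mitotic proteins for destruction, had 141 and 143 against 615 and 512 (log2 fold change -1.95, SE 0.18, adjusted p = 0.000120). Top2a, which untangles chromosomes, had 231 and 221 against 717 and 774 (log2 fold change -1.71, SE 0.16, adjusted p = 0.000139), and Ccnb2, a mitotic cyclin, had 90.2 and 119 against 415 and 452 (log2 fold change -2.02, SE 0.21, adjusted p = 0.000209). Mki67, the antigen of dividing cells, had 239.7 and 237 against 691 and 583 (log2 fold change -1.40, SE 0.17, adjusted p = 0.000593). Each had separated groups, with the transplanted arrays below 0.5 times the untransplanted ones. Summed over all 25 genes of the list on the array, intensity was 2331 to 2394 with the transplant against 6604 to 6656. The count of 17 became 11 without untransplanted array 2 and 11 without the intensity trend in the spread. Of 23 tested genes of DNA replication, only Tk1, Rrm1, Rrm2 and Mcm7 fell, by 1.72-fold to 2.71-fold (list median -0.27), and the calls of Rrm2 and Mcm7 were lost without untransplanted array 2. Pcna, the clamp of the replication fork, had 5271 and 5207 against 5169 and 5216 and did not pass (adjusted p = 0.962).

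Promoters of mitotic genes are known for CCAAT boxes, bound by NF-Y, and for the cell cycle homology region, TTTGAA, that silences them outside division. Those of 4 genes that fell are shown because the promoter windows of many genes of this list hold these letters. The windows are the 150 bases before the start (RefSeq, GRCm38.p6): chr9:70421555-70421704 on the minus strand for Ccnb2, chr4:118437344-118437493 on the minus strand for Cdc20, chr10:69352913-69353062 on the minus strand for Cdk1 and chr2:164769779-164769928 on the plus strand for Ube2c. Capitals mark ATTGG or its complement CCAAT, and TTTGAA or its complement TTCAAA.
Ccnb2: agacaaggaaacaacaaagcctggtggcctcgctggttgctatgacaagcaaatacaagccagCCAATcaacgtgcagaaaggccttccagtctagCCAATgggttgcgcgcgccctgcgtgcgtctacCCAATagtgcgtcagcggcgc
Cdc20: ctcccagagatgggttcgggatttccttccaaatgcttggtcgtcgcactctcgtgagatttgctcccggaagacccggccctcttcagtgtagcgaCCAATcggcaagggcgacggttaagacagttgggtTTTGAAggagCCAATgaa
Cdk1: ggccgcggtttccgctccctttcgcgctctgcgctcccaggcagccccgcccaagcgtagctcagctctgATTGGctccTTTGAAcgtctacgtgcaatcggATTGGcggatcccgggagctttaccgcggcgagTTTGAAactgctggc
Ube2c: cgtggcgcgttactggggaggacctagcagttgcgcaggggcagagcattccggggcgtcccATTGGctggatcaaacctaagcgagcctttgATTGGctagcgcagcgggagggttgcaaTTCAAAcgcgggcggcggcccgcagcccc
On both strands, ATTGG was found in 19 of the 22 mitosis genes with an entry and in 27.7% of all 27025 genes, and TTTGAA in 7 of 22 against 10.5%. The letters ATTGG also lie within the Y box CTGATTGG, so the searches overlap. Ccnb2 held ATTGG 3 times in this window, and its nearest copy began 21 bases before the start. Cdc20, an activator of mitotic exit, had 123 and 115 against 394 and 430.0 (log2 fold change -1.75, SE 0.19, adjusted p = 0.000266), and Cdk1, the kinase that drives mitosis, had 135 and 180.2 against 372 and 525 (log2 fold change -1.48, SE 0.23, adjusted p = 0.00260). The matches are a description of these sequences.

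In contrast, genes of killing by natural killer cells and cytotoxic T cells rose. Of 16 tested genes of this list, 7 rose and 0 fell, by 2.09-fold to 20.0-fold (list median 1.09, or 0.50 with values under the filter value set to it), and 4 of the 16 passed the filter only through the transplanted arrays. Gzma, granzyme A, had 1660.3 and 1659 with the transplant against 85.1 and 73.8 without it (log2 fold change 4.32, SE 0.17, adjusted p = 1.00e-06). Gzmb, granzyme B, had 1392 and 1246 against 138 and 114 (log2 fold change 3.35, SE 0.17, adjusted p = 3.32e-06). These were the 2 largest rises of genes above the filter value in both groups. Prf1, perforin, which forms the pore through which granzymes enter, had 191 and 189 against 41.1 and 71.4 (log2 fold change 1.73, SE 0.30, adjusted p = 0.00506), and Nkg7, a protein of cytotoxic granules, had 232 and 239.8 against 56.6 and 60.8 (log2 fold change 1.94, SE 0.23, adjusted p = 0.000531). Fasl, the death ligand, was at least 2.46-fold higher, and Ctsw and Il2rb rose by 2.09-fold and 2.20-fold. Among the 9 that did not pass were the receptors Klrd1 and Klrk1 and the regulator Eomes: Klrd1 had 254 and 356 against 281 and 318, Klrk1 437 and 481 against 269.6 and 458, and Eomes 37.5 and 58.8 against 45.2 and 54.2. Over all 19 genes of the list on the array, the summed intensity was 5295 to 5465 against 1704 to 1809. Gzma and Gzmb made up most of this difference, so the sum mainly describes these genes. The call of Il2rb was lost without any 1 of the 4 arrays. Those of Fasl and Ctsw were lost without transplanted array 2. That of Fasl was also lost without untransplanted array 1, and that of Ctsw without untransplanted array 2.

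Other lymphocyte genes stood among the 12 largest rises: Txk, a kinase of T and natural killer cells, at least 1.7-fold higher with 53.3 and 86.2 against 3.30 and 2.23, and Klra7, an inhibitory receptor of natural killer cells, at least 2.85-fold higher with 103 and 132 against 5.38 and 18.2. Tnfrsf9, the costimulator 4-1BB of activated lymphocytes, was at least 2.76-fold higher. The calls of Txk, Klra7 and Tnfrsf9 were lost without transplanted array 2, that of Txk also without transplanted array 1, and the log2 fold change of Klra7 moved from 3.06 to 2.44 and 3.68 without untransplanted array 1 or 2. T cell genes gave few calls: of 15 tested, Il7r rose and Cd4 and Ccr7 fell. These were 6.67% higher and 13.3% lower, against 3.24% and 6.88% of all tested genes. Cd3d, Cd3e, Cd8a, Cd2 and Zap70 were among the 12 that did not pass. The list median was -0.39, or -0.22 with values under the filter value set to it. Of the 15, 3 passed the filter only through the untransplanted arrays, and the summed intensity of all 22 genes of the list on the array was higher with the transplant, at 2957 to 3175 against 2335 to 2398. The rise of Il7r alone was larger than the rise of this sum, so the sum does not describe the other members. Il7r, the interleukin 7 receptor, had 2131 and 1854 against 832 and 776 (log2 fold change 1.30, SE 0.14, adjusted p = 0.000306). Cd4, the coreceptor of helper T cells that some myeloid cells also carry, had 5.48 and 10.4 against 122 and 133 and was at least 3.1-fold lower (adjusted p = 0.00242), a call lost without either untransplanted array. Of 8 tested B cell genes, Ighm, the heavy chain of IgM, fell with 1216 and 1131 against 2717 and 2645 (log2 fold change -1.19, SE 0.13, adjusted p = 0.000311), Cd24a rose by 0.86 and lost its call without either untransplanted array, and Cd79a, Ms4a1 and Pax5 did not reach the filter.

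The remaining cell type lists gave few calls, but some shares lay above those of all tested genes (6.88% lower, 3.24% higher). Called lower were 25% of stem and progenitor genes and 11.1% of platelet and megakaryocyte genes. Called higher were 28.6% of neutrophil granule genes, and endothelial genes gave 12.5% in each direction. Of 12 tested genes of stem and progenitor cells, Runx1, Flt3 and Cd34 fell and 0 rose (list median -0.41). Cd34, a surface protein of blood progenitors and of mesenchymal and endothelial cells, had 42.3 and 45.6 against 100.5 and 128 (log2 fold change -1.29, SE 0.31, adjusted p = 0.0300), and Runx1, a transcription factor of blood formation, had 322 and 301 against 581 and 500.4 (log2 fold change -0.78, SE 0.17, adjusted p = 0.0167). Without untransplanted array 1 the calls of all 3 were lost, without untransplanted array 2 those of Flt3 and Cd34, and without transplanted array 2 that of Flt3. Kit, Meis1, Hoxa9, Slamf1 and Hlf did not reach the filter. Of 7 tested neutrophil granule genes, Mmp8, a collagenase, rose with 486 and 288 against 79.8 and 95.6 (log2 fold change 2.05, SE 0.26, adjusted p = 0.000808) and S100a9 rose with 288 and 318 against 143 and 177 (log2 fold change 0.91, SE 0.20, adjusted p = 0.0177). The call of S100a9 was lost without untransplanted array 1 or transplanted array 2, and Ngp, Camp, Ltf, Elane and Mpo did not reach the filter. Of 16 tested endothelial genes, Cd36 and Kdr rose, Aqp1 and Eng fell, and Pecam1 and Cdh5 did not pass (list median -0.63). Summed over all 21 genes of that list on the array, intensity was 3504 to 3698 against 2804 to 2893. The rise of Cd36 alone, whose values are given with the lipid genes below, was larger than the rise of this sum. The sum therefore does not describe the other members. Without untransplanted array 1 the calls of Kdr and Aqp1 were lost, and without untransplanted array 2 that of Eng. Of 9 platelet and megakaryocyte genes F2r alone fell, a call lost without either untransplanted array or transplanted array 2, and Pf4, a platelet chemokine that macrophages also express, had 9385 and 7767 against 7821 and 9349. Of 4 tested erythroid genes 0 passed.

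Inflammatory signals moved in both directions. Of 29 tested cytokine and chemokine genes, 9 fell and 3 rose (list median -0.25). Il6, interleukin 6, had 176 and 138 against 683 and 454 (log2 fold change -1.81, SE 0.23, adjusted p = 0.000741). Cxcl1, a neutrophil attractant, had 917 and 1006 against 1861 and 1799 (log2 fold change -0.93, SE 0.14, adjusted p = 0.00205), and Cxcl10, a ligand of CXCR3 on T and natural killer cells, had 1503 and 1499.6 against 2706 and 2563 (log2 fold change -0.81, SE 0.13, adjusted p = 0.00318). Cxcl12, the factor that holds blood stem cells in the marrow, had 335 and 461 against 834 and 656 (log2 fold change -0.91, SE 0.20, adjusted p = 0.0181), and Cxcl14 fell by 1.70. The monocyte attractants Ccl7 and Ccl12 rose, Ccl7 with 9724 and 10805 against 6158 and 5921 (log2 fold change 0.76, SE 0.12, adjusted p = 0.00297) and Ccl12 with 4079.8 and 4556 against 2412 and 2614 (log2 fold change 0.78, SE 0.13, adjusted p = 0.00405). Tnf, Il1b, Ccl2, Ccl3 and Ccl4 did not pass the test. Without untransplanted array 1 the count of 9 became 5, with the calls of Cxcl12 and Nfkbiz among those lost, and without any 1 array the calls of Il10 and Il1rn were lost.

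Of 31 tested interferon response genes, Usp18, Oasl1 and Rtp4 rose and Cxcl10, Gbp2 and Cxcl9 fell (list median 0.24), with folds between 1.42 and 1.75. Usp18, which removes the ubiquitin-like ISG15, had 1897 and 1726 against 1174 and 1056 (log2 fold change 0.70, SE 0.14, adjusted p = 0.0114). Without untransplanted array 2, 0 of these genes rose and Cxcl10 alone fell. Of 21 tested Fc, Toll-like and complement receptor genes, C3ar1, C5ar1, Tlr4 and Itgam rose and Tlr2, Fcgr2b and Itgax fell (list median 0.10). C3ar1, the receptor of the complement fragment C3a, had 7740.3 and 6488 against 3944 and 4144 (log2 fold change 0.81, SE 0.13, adjusted p = 0.00351), and Tlr2, a receptor of bacterial lipoproteins, had 2259.7 and 1769 against 3426 and 4504 (log2 fold change -0.97, SE 0.17, adjusted p = 0.00551). Without untransplanted array 2 the 3 falls lost their calls, and without untransplanted array 1 the calls of Tlr4, C5ar1 and Fcgr2b were lost, those of C5ar1 and Fcgr2b also without transplanted array 2.

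Genes of homing and adhesion were evenly divided, with 4 higher and 4 lower among 24 tested (list median -0.04). Rgs1, a brake on chemokine receptor signals, was one of the brightest genes to rise, with 9589 and 8678 against 3374 and 3289 (log2 fold change 1.45, SE 0.12, adjusted p = 5.10e-05). Itga6, Itgb2 and Itgam, integrin chains, rose by 0.91, 0.68 and 0.97. Vcam1, Cx3cr1 and Ccr7, described above, fell, as did Icam1 with 591 and 602 against 1115 and 970.0 (log2 fold change -0.80, SE 0.15, adjusted p = 0.00810). The chemokine receptors Ccr2 and Cxcr4 did not pass: Ccr2 had 2368 and 3027 against 2560.1 and 3135, and Cxcr4 1063 and 1068 against 1165 and 977. Without untransplanted array 1 the calls of Itgb2 and Icam1 were lost.

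Lipid genes moved in both directions. Of 24 tested genes of cholesterol and lipid handling, 3 rose and 7 fell (list median -0.35). The 3 that rose were Cd36, a fatty acid and oxidised lipoprotein receptor, Pparg, the nuclear receptor that drives it, and Plin2, the coat of lipid droplets. Cd36 had 2069.7 and 2314 against 932 and 939 (log2 fold change 1.22, SE 0.14, adjusted p = 0.000347), and Pparg had 399 and 349 against 141 and 191 (log2 fold change 1.17, SE 0.21, adjusted p = 0.00597). Of those that fell, Pltp, the phospholipid transfer protein, had 972 and 1001 against 3097 and 3205 (log2 fold change -1.67, SE 0.13, adjusted p = 2.95e-05), and Apoe, apolipoprotein E, had 16161 and 15883 against 23572 and 24397 (log2 fold change -0.58, SE 0.11, adjusted p = 0.00812). Abca1, the cholesterol exporter, fell by 0.70, as did Lpcat3. The count of 7 became 3 without untransplanted array 1, 1 without untransplanted array 2 and 5 without transplanted array 2; Pltp kept its call under each of these. Plin2 lost its call without either untransplanted array or transplanted array 1. Of 23 tested lysosome genes, Ctsl, a cathepsin, rose with 13677 and 16792 against 7327 and 6893 (log2 fold change 1.09, SE 0.13, adjusted p = 0.000547) and Gla, alpha-galactosidase A, with 2139 and 2185 against 1069 and 1078 (log2 fold change 1.01, SE 0.13, adjusted p = 0.000874), and 0 fell.

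Insulin-like growth factors, which drive the growth of regenerating muscle, fell with most of their binding proteins. Of 13 tested genes of this list 8 fell and 1 rose (list median -1.70, or -1.04 with values under the filter value set to it), and 3 of the 13 passed the filter only through the untransplanted arrays. Igf1 had 359 and 173 against 839.9 and 1604 (log2 fold change -2.20, SE 0.34, adjusted p = 0.00307), with nearly 2-fold differences within both groups but no overlap between them. Igfbp4, a binding protein that holds these factors back, had 179.9 and 252 against 1247 and 1426 (log2 fold change -2.62, SE 0.19, adjusted p = 1.87e-05), and Igfbp7 had 242 and 169 against 548 and 807 (log2 fold change -1.70, SE 0.23, adjusted p = 0.00135). Igf2 was at least 2.31-fold lower, with 6.72 and 8.72 against 86.4 and 102. Igf2r, which clears Igf2, rose with 536 and 479 against 308 and 318 (log2 fold change 0.69, SE 0.16, adjusted p = 0.0284). The count of 8 became 4 without untransplanted array 1 and 5 without untransplanted array 2, where the calls of Igf2, Htra1 and Irs1 were lost in both, and Igf2r lost its call without either of them or transplanted array 1. Of 20 tested genes of the TGF-beta family Ltbp3, Eng, Bmp2 and Id3 fell and 0 rose (list median 0.05), and 1 of these 4 calls held without untransplanted array 1 and 2 without untransplanted array 2. Tgfb1 had 1193 and 1055 against 1089.9 and 917 and did not pass (adjusted p = 0.565).

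Stress and damage genes gave small counts, but some shares lay above those of all tested genes. Called higher were 23.5% of p53 targets, against 3.24% of all tested genes. Called lower were 16.7% of immediate early and stress genes and 17.6% of heat shock genes, against 6.88%. Of 17 tested p53 targets, Plk2, Mdm2, Sesn2 and Ccng1 rose and 0 fell (list median 0.18). Mdm2, the ligase that degrades p53, had 959 and 1500.1 against 587 and 655 (log2 fold change 0.95, SE 0.20, adjusted p = 0.0168), and Cdkn1a, the cell cycle inhibitor p21, had 3547 and 2888 against 2656 and 2752 and did not pass (adjusted p = 0.331). The count of 4 fell to 1 without untransplanted array 1, to 0 without untransplanted array 2 and to 2 without transplanted array 2. Of 24 immediate early and stress genes, Ddit3, a factor of the endoplasmic reticulum stress response, rose with 714 and 646 against 262 and 195 (log2 fold change 1.57, SE 0.19, adjusted p = 0.000552). Maff, Nr4a2, Myc and Egr1 fell, but 0 of these 4 kept the call without untransplanted array 1, 1 without untransplanted array 2 and 2 without transplanted array 1, and Fos and Jun did not pass. Of 17 heat shock genes Dnajb4, Dnajb1 and Hspb1 fell by 2.11-fold, 1.84-fold and 2.17-fold, and Hspb1 lost its call without untransplanted array 2.

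Genes of basic metabolism were close to the background. The shares called lower ran from 0% of oxidative phosphorylation genes to 12.5% of iron and heme genes, against 6.88% of all tested genes. Of 29 tested oxidative phosphorylation genes Cycs, cytochrome c, alone passed, with 2969.6 and 2726 against 1665 and 1691 (log2 fold change 0.76, SE 0.13, adjusted p = 0.00465). Of 22 glycolysis and hypoxia genes Bnip3 and Hk2 fell, and both calls were lost without untransplanted array 2, that of Hk2 also without untransplanted array 1. Of 21 cytosolic ribosomal protein genes Rpl10a alone fell, a call lost without either untransplanted array or transplanted array 2. Of 16 iron and heme genes Cd163 and Slc40a1, the iron exporter ferroportin, fell, Slc40a1 with 91.3 and 135 against 275 and 317 (log2 fold change -1.38, SE 0.23, adjusted p = 0.00477). The list medians of these lists lay between -0.16 and 0.10, near the 0.01 of all tested genes.

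**Figure D3:**
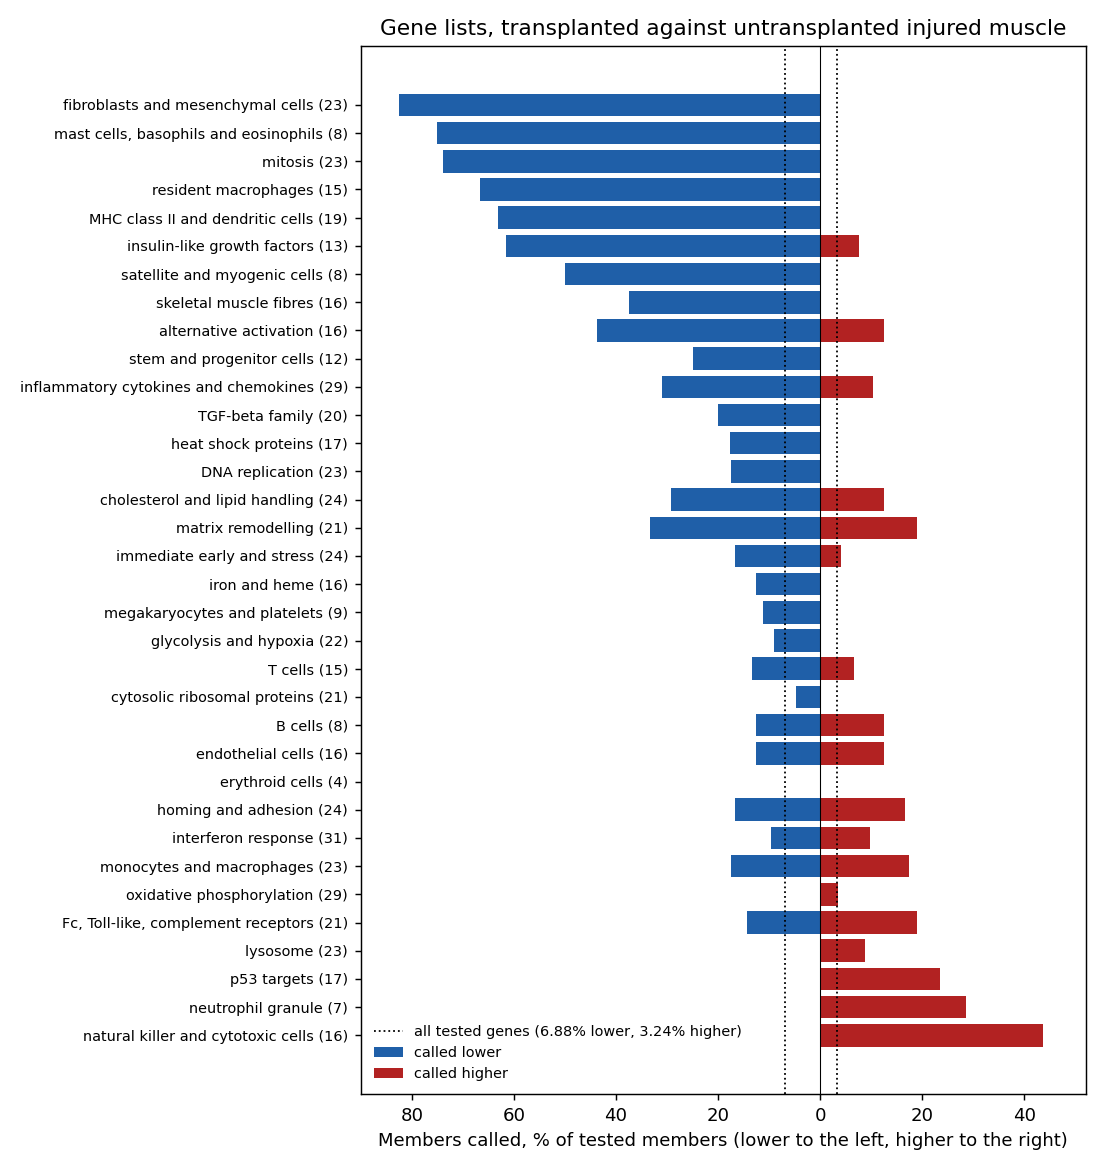
Share of the tested members of each gene list that were called lower (blue, to the left) and higher (red, to the right) with the transplant, in percent, with the number tested in parentheses and the shares over all tested genes (6.88% and 3.24%) as dotted lines. Fibroblast (19 of 23), mast cell (6 of 8), mitosis (17 of 23), resident macrophage (10 of 15) and MHC class II (12 of 19) genes extend far to the left, and cytotoxic genes (7 of 16) to the right. Of the tested members, 4 mast cell genes, 1 resident macrophage gene, 3 insulin-like growth factor, 5 muscle fibre and 5 satellite cell genes passed the filter only through the untransplanted arrays, and 4 cytotoxic genes only through the transplanted ones, so these shares are not ranked against the others.

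Several of the 12 largest rises belong to none of the lists above. Angpt2, a modulator of vessel stability, was at least 5.34-fold higher, with 202 and 244 against 36.9 and 20.6. Lipg, an endothelial lipase that macrophages can express, had 232 and 258 against 25.1 and 59.0 (log2 fold change 2.54, SE 0.35, adjusted p = 0.00144). Pla2g2e, a secreted phospholipase, was at least 3.63-fold higher. These genes were near or under the filter value on both untransplanted arrays and clearly measured on both transplanted arrays. Npy, neuropeptide Y, had 277 and 389.6 against 74.1 and 76.6 (log2 fold change 2.07, SE 0.23, adjusted p = 0.000362), and Htr2b, a serotonin receptor, had 361 and 427 against 115 and 76.6 (log2 fold change 2.02, SE 0.23, adjusted p = 0.000461). Zfp688, a zinc finger protein, was at least 1.63-fold higher, with a call that was lost without any 1 of the 4 arrays.

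The 4 arrays of uninjured muscle and bone marrow, which play no part in this fit, show where the called genes were expressed in the other sorted cells. Of the 552 genes that fell with the transplant, 265 (48.0%) were higher in uninjured muscle than in bone marrow by at least 2-fold with separated arrays, against 10.6% of all tested genes. Of the 260 that rose, 14.2% were. The share higher in bone marrow was 8.88% of the genes that fell, 9.23% of those that rose and 8.6% of all tested genes. Read the other way, of 852 tested genes higher in uninjured muscle than in marrow, 31.1% fell and 4.34% rose with the transplant. Cpa3 had 3734 and 2378 in uninjured muscle and 262 and 201 in marrow, and Cma1 had 2402 and 2258 and 36.7 and 40.2. The 3' to 5' ratios of Gapdh on these 4 arrays were 10.7 to 46.9, far from the injured arrays, so their levels are set only against each other. That comparison is not free of such a difference either. The beta-actin ratios were 19.03 and 10.09 in uninjured muscle and 5.75 and 5.68 in marrow, while those of Gapdh overlapped. Whether this difference in RNA controls contributed to the shares above was not tested.

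**Figure D4:**
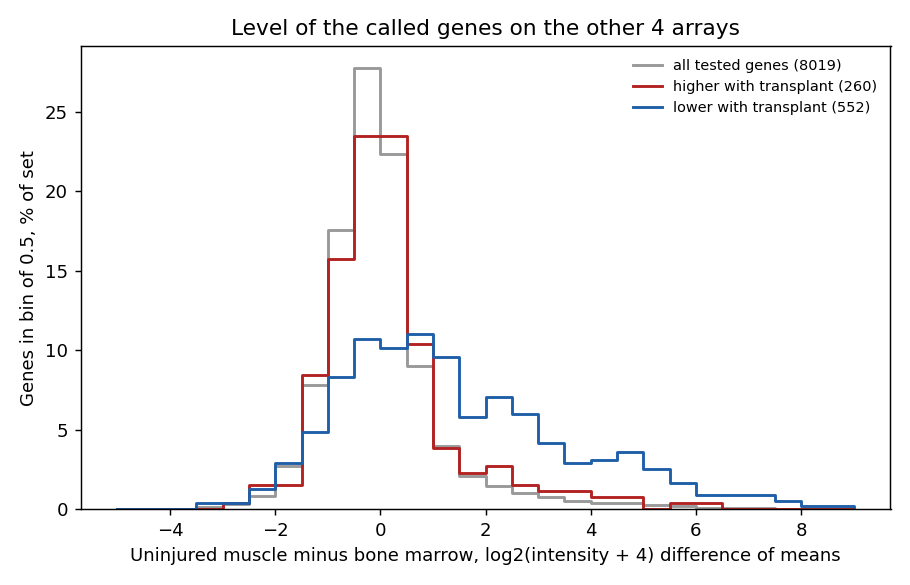
Distribution of the difference between uninjured muscle and bone marrow (x axis, log2(intensity + 4) difference of means of 2 arrays each, bins of 0.5) for all tested genes and for genes called higher or lower with the transplant, in percent of each set (y axis). The 552 genes that fell extend to the right, toward uninjured muscle, with a median difference of 1.01, whereas the 260 that rose follow all tested genes, with medians of -0.02 and -0.12.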

How the data were processed

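RNA of CD45+/Sca1+ cells was hybridised to 8 Affymetrix Mouse430A arrays, 1 per sample, of which 4 are compared here. The labels' protocols give a one-cycle biotin labelling from 1 µg of total RNA. The deposited values are linear intensities, 1 per probe set, scaled by the authors so that the mean of each array, trimmed by 2% at each end, is 250.1 (checked on the table). The submitters' processing notes name GCOS, with no version and no stated use. For the probe summary and the background correction, the method is not given in the sources used here.

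Of 22690 probe sets, 64 controls were left out. Of the other 22626, 20380 had 1 gene in the annotation, 691 several and 1555 none, and 20364 symbols were updated through gene identifiers. Values were raised to at least 1 and taken as log2(value + 4), 4 being the rounded 10th percentile of all values. The test took probe sets that reached 38.3, the 40th percentile, on 2 or more of the 4 arrays, which left 13726, or 8019 of 12393 named genes, each gene standing by its tested probe set with the highest mean. A fold against a group with both arrays under 38.3 used that value in its place and is written "at least"; it is not a detection limit. Groups were compared in limma 3.58.1 (R 4.3.3) on the 4 arrays, with an intensity trend, two-sided, and Benjamini-Hochberg adjustment over all tested probe sets at 0.05. The median SE was 0.22, and precision is limited by having 2 arrays a group. The procedure was tested on simulated data.

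Named genes were the 12 largest changes per direction among called genes with separated groups and a higher mean of at least 64.2, the median of all values, the members, up to 4 a list, that had the smallest p, Ptprc and sex-linked genes. Other names were chosen after their values were seen. The comparison, the lists and the rule were chosen with earlier results of these data known. Replicate numbers were not used as pairs: deviations of arrays with the same number had a correlation of 0.011. The alternatives were 3 other scalings, other pseudocounts, filters, spread estimates and probe set rules, and each array left out.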

Additional observations from a re-analysis of the deposited data

How the results depend on the processing

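All 812 called genes kept their sign under 19 of the 20 alternatives in which they were tested, and 808 did when all probe sets of a gene were averaged. Most of this was fixed in advance. The groups of every called gene were separated, so leaving out 1 array or changing the pseudocount could not reverse a sign. Other spread estimates, all 8 arrays in the fit and the looser threshold left the fold changes as they were. Counts depended more on the settings. The probe sets that rose, 412 on the settings used, were 784 with median centring, 252 without the filter, 82 without the intensity trend, 6 with all 8 arrays in the fit and 780 at an adjusted p of 0.10. Those that fell, 805, were 543, 404, 47 and 1138 under the last 4 of these. Leaving out 1 array gave 184 to 436 that rose and 392 to 930 that fell. With the replicate block, 546 rose and 956 fell.

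With all 8 arrays in the fit, 0 resident macrophage, 2 MHC class II, 3 mast cell, 3 fibroblast and 1 mitosis gene fell and 2 cytotoxic genes rose; the spread of the other groups enters this fit. Cytotoxic genes that rose were 4 without the filter, 4 without the intensity trend and 4 to 6 with 1 array left out. Mitosis genes that fell were 11 without the trend and 11 to 18 with 1 array left out. Separated groups with a 2-fold difference, 271 probe sets higher and 887 lower, were 935 and 1906 without the filter, 118 and 453 under a stricter filter, the 60th percentile, and 63 and 332 with the pseudocount at the median. The higher ones were 415 with median centring, 168 with the pseudocount at the 25th percentile and 317 to 469 with 1 array left out (469 without untransplanted array 2). With values under 38.3 set to it, an alternative chosen after seeing the data, 307 rose and 725 fell.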

Other observations

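Imprinted genes, expressed from 1 parental copy and many of them active in embryonic and mesenchymal cells, were not a list of the comparison and were examined after their values were seen. Of 13 tested, 9 fell with the transplant, 1 rose and 3 did not pass, and the median over the 13 was -2.31 on the log2 scale. That median became -1.44 once values under the filter value of 38.3 were raised to it. Of the 13, 4 (Igf2, Cdkn1c, Sgce and Rian) passed the filter only through the untransplanted arrays. Meg3, a long noncoding RNA, had 98.0 and 113 with the transplant against 903 and 669.5 without it (log2 fold change -2.84, SE 0.20, adjusted p = 1.66e-05). Plagl1, a zinc finger factor, had 69.3 and 60.5 against 444 and 410.4 (log2 fold change -2.65, SE 0.21, adjusted p = 3.11e-05), and Mest had 45.8 and 62.9 against 247 and 349 (log2 fold change -2.37, SE 0.27, adjusted p = 0.000367). Peg3, Grb10, Ndn, Sgce, Cdkn1c and Igf2 also fell. Igf2r was the 1 gene that rose. The calls of Ndn and Cdkn1c were lost without untransplanted array 1, those of Igf2 and Sgce without either untransplanted array, and that of Igf2r without either of these or transplanted array 1. Whether these genes fell with the fibroblast genes or apart from them was not tested.

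Tmem176a and Tmem176b, neighbouring membrane protein genes expressed in dendritic cells and macrophages, were also named after their values were seen. Tmem176a had 139.9 and 148 against 1209 and 1105 (log2 fold change -2.97, SE 0.16, adjusted p = 4.22e-06). Tmem176b had 310.3 and 493 against 3315 and 3282 (log2 fold change -3.06, SE 0.20, adjusted p = 9.16e-06). Both transplanted arrays were far below both untransplanted arrays for each gene. Both calls held when any 1 array was left out and with all 8 arrays in the fit.

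Surface receptors and enzymes of myeloid cells that rose, again named after their values were seen, included Cd300lf, an inhibitory receptor, with 1839.8 and 1872 against 576 and 758 (log2 fold change 1.48, SE 0.16, adjusted p = 0.000303), Ltb4r1, the leukotriene B4 receptor, with 335 and 352 against 173 and 158 (log2 fold change 1.04, SE 0.18, adjusted p = 0.00581), and Acod1, which makes itaconate in activated macrophages, with 370.1 and 383 against 179 and 186 (log2 fold change 1.03, SE 0.18, adjusted p = 0.00518). These calls held when any 1 array was left out.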
